A study of Arabidopsis thaliana with 13 samples.

Results

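PFT-alpha and ACC were compared directly in wild-type Arabidopsis thaliana seedlings of the accession Col-0. The comparison used the 3 wild-type libraries treated with 30 µM PFT-alpha and the 3 treated with 10 µM ACC, which is 6 of the 13 libraries sequenced. No mock library entered the test. The remaining libraries were 3 wild-type mock libraries, whose levels are given for reference, and 4 of the ethylene-insensitive receptor mutant etr1-1, which were not used here. All seedlings had 6 h of white light and grew in darkness at 22 °C to the age of 4 days. They were collected whole after 4 h in liquid medium with PFT-alpha, ACC or, as mock, 1‰ DMSO. The DMSO content of the PFT-alpha and ACC media was not recorded here. Each group had 3 replicates that the study calls biological, and the replicate number was kept as a pair across both treatments.

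PFT-alpha (pifithrin-alpha) is a compound best known for blocking p53, a tumour suppressor of animals and a protein for which plants have no close relative. ACC (1-aminocyclopropane-1-carboxylic acid) is the direct precursor of the plant hormone ethylene, into which ACC oxidases convert it. Ethylene is bound by a family of receptors that, without it, keep the kinase CTR1 active and the pathway shut; when ethylene binds, EIN2 and the transcription factors EIN3 and EIL1 become active. In dark-grown seedlings the pathway is known for the triple response, a short and thick hypocotyl with a tight apical hook and a short root. Because ACC acts on this pathway, the comparison asks how far transcript levels under PFT-alpha stand from those under ACC for the same time. Ethylene itself was not applied.

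Levels are given in TPM, the authors' transcript abundance scaled by gene length and by library, so levels of different genes can be set side by side. Differences are PFT-alpha minus ACC on the log2(TPM + 1) scale, which understates the fold of low genes. Throughout, rose and fell mean higher and lower under PFT-alpha than under ACC, not a change from mock. A gene was called when its Benjamini-Hochberg adjusted p in the limma fit was under 0.05. Depth was estimated at 20.5 to 22.4 M fragments in these 6 libraries, with 1 TPM reached by 19059 to 19757 genes in each. Replicate 3 stood apart in both groups. Summed antenna and Rubisco transcripts were 74170 TPM in PFT-alpha replicate 3 and 63640 TPM in ACC replicate 3, against 27840 to 36880 TPM in the other 4 libraries. Seed storage transcripts summed to 2136 and 3139 TPM in those libraries against 276.3 to 604.5 TPM, and root hair transcripts to 6.23 and 5.24 TPM against 23.5 to 37.1 TPM. In whole seedlings, fewer cells of a type and less RNA per cell cannot be told apart. The first principal component (64.2% of variance) separated replicate 3 from the rest, and the second (14.6%) separated PFT-alpha from ACC. The replicate term in the fit removes what both libraries of a number share.

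**Figure D1:**
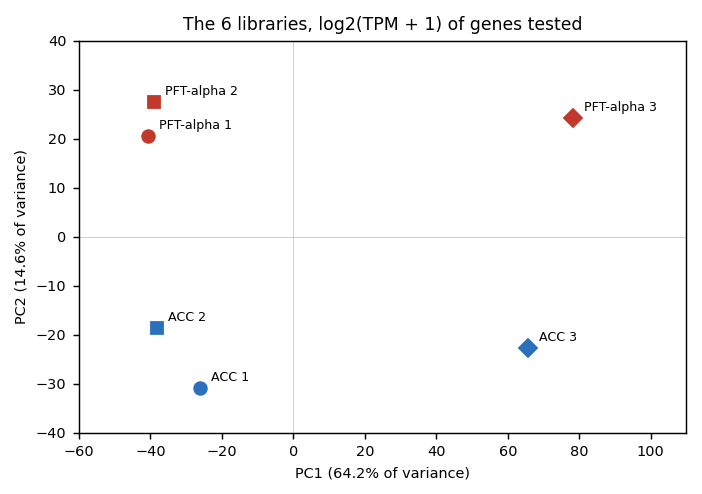
The 6 libraries on the first 2 principal components of log2(TPM + 1) over the genes tested, PFT-alpha in red and ACC in blue, with the share of variance on each axis. Both replicate 3 libraries lie at 65.7 or above on PC1 and the other 4 at -26.1 or below, while on PC2 the PFT-alpha libraries lie at 20.6 to 27.5 and the ACC libraries at -30.9 to -18.7.

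Of 20367 genes tested, 174 were called (0.854% of those tested). Of these, 87 were higher and 87 lower under PFT-alpha than under ACC (0.427% each), and 129 (0.633%) differed by at least 2-fold, 64 higher and 65 lower. In all 174 the 3 replicate pairs pointed one way, and in 152 the libraries of the groups did not overlap. Of all genes tested, 9.36% had groups that did not overlap (4.93% higher and 4.43% lower under PFT-alpha). The calls were made from these same libraries and favour such genes, so both counts describe the calls and are no separate support. The median difference over all genes was -0.016, and 46.6% of genes lay above 0. The count depends on the replicate term: 12 genes were called without it (5 higher, 7 lower), and all 12 were among the 174. It was 429 without replicate 1, 304 without replicate 2 and 576 without replicate 3, where 168, 141 and 173 of the 174 were called in the same direction. No call changed sign in these fits, and none could, since all 3 pairs of each call pointed one way.

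**Figure D2:**
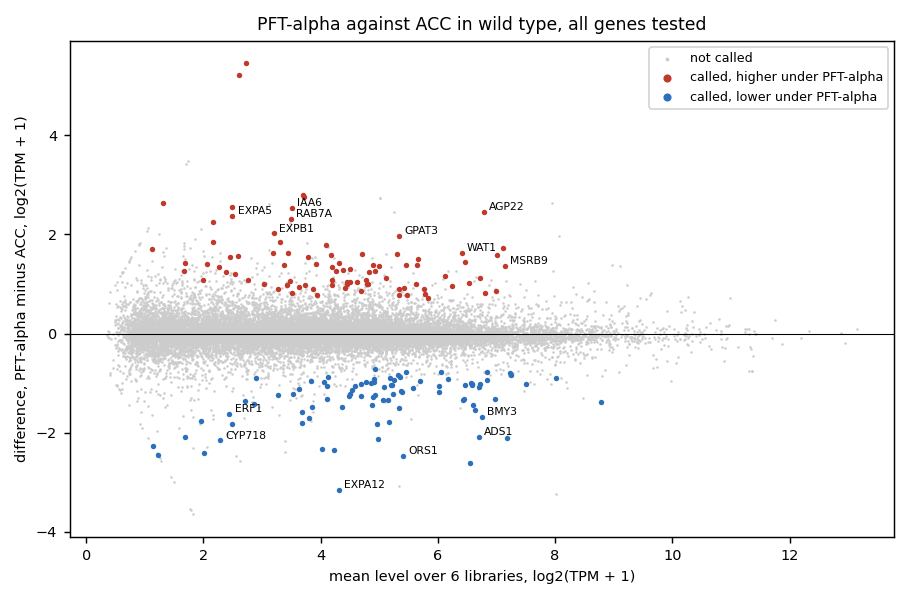
The difference between PFT-alpha and ACC of each gene tested (vertical, log2(TPM + 1)) against its mean level over the 6 libraries (horizontal, log2(TPM + 1)), with called genes coloured. Called genes lie on both sides of 0, from EXPA12 at -3.16 among the lower to IAA6 at 2.53 and AGP22 at 2.46 among the labelled higher genes; both points above 4 are short features described with the uncertain genes.

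The 22 gene lists were chosen with earlier results of these data known, so their counts and medians describe them and test nothing. Genes that ethylene is known to induce had the lowest median of these lists. Of 15 tested, 7 fell and 0 rose relative to ACC, where 0.427% of all genes tested fell, and the list's median difference was -1.01 against -0.016 for all genes. EXPA12, an alpha-expansin of the family that loosens cell walls, had 7.45, 4.29 and 5.54 TPM under PFT-alpha and 50.9, 71.4 and 55.2 TPM under ACC. It stood at 3.69, 3.2 and 3.4 TPM in mock. Its lowest ACC library lay far above its highest PFT-alpha library, and the difference was the largest among the named genes that fell (log2 difference -3.16, SE 0.22, limma adjusted p = 0.0126). ERF1, an AP2/ERF transcription factor that EIN3 is known to activate, had 2.6, 2.78 and 1.17 TPM under PFT-alpha and 10.4, 10.9 and 5.43 TPM under ACC (log2 difference -1.63, SE 0.14, adjusted p = 0.0163). Its mock libraries held 1.85, 2.79 and 0.3 TPM. For both genes the PFT-alpha libraries lay within a few TPM of the mock libraries and below every ACC library.

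ORS1, a member of the ORGAN SIZE family that promotes organ growth, had 17.5, 16.5 and 16.7 TPM under PFT-alpha and 96.9, 116 and 84.5 TPM under ACC (log2 difference -2.47, SE 0.13, adjusted p = 0.0063). The groups were far from overlapping, but ORS1 lies over AT2G41231 on the other strand, which fell as well (log2 difference -2.61, SE 0.22, adjusted p = 0.0163), and reads of the pair may not be told apart. Its relatives ARGOS (175, 146 and 105 TPM under PFT-alpha, 269, 322 and 257 TPM under ACC) and ARL (223, 176 and 206 TPM under PFT-alpha, 353, 369.9 and 397 TPM under ACC) did not pass (adjusted p = 0.0653 and 0.0607), although neither gene's groups overlapped. HLS1, an acetyltransferase-like protein needed for the apical hook, had 44.6, 39.5 and 42.97 TPM under PFT-alpha and 106, 100.1 and 84.8 TPM under ACC (log2 difference -1.17, SE 0.12, adjusted p = 0.0198). TEM1, a repressor of flowering with AP2 and B3 domains, had 165, 149 and 82.3 TPM under PFT-alpha and 298, 299.5 and 189 TPM under ACC (log2 difference -1.01, SE 0.12, adjusted p = 0.0362). In both genes every ACC library was above every PFT-alpha library. EDF3, from the same small family, averaged 22.1 ± 7.23 TPM under PFT-alpha and 56.2 ± 12.3 TPM under ACC (SD, n = 3 each; log2 difference -1.34, SE 0.13, adjusted p = 0.0188). ERF2 averaged 6.61 ± 0.865 TPM under PFT-alpha and 16.6 ± 0.945 TPM under ACC (log2 difference -1.21, SE 0.12, adjusted p = 0.0216). Not every gene of the list was lower. ERF104 (0.19, adjusted p = 0.558), RAV1 (0.09, adjusted p = 0.885) and ERF5 (-0.12, adjusted p = 0.806) lay close to 0 and were not called. Without replicate 3 the list again held 7 calls, and without the replicate term it held 2.

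**Figure D3:**
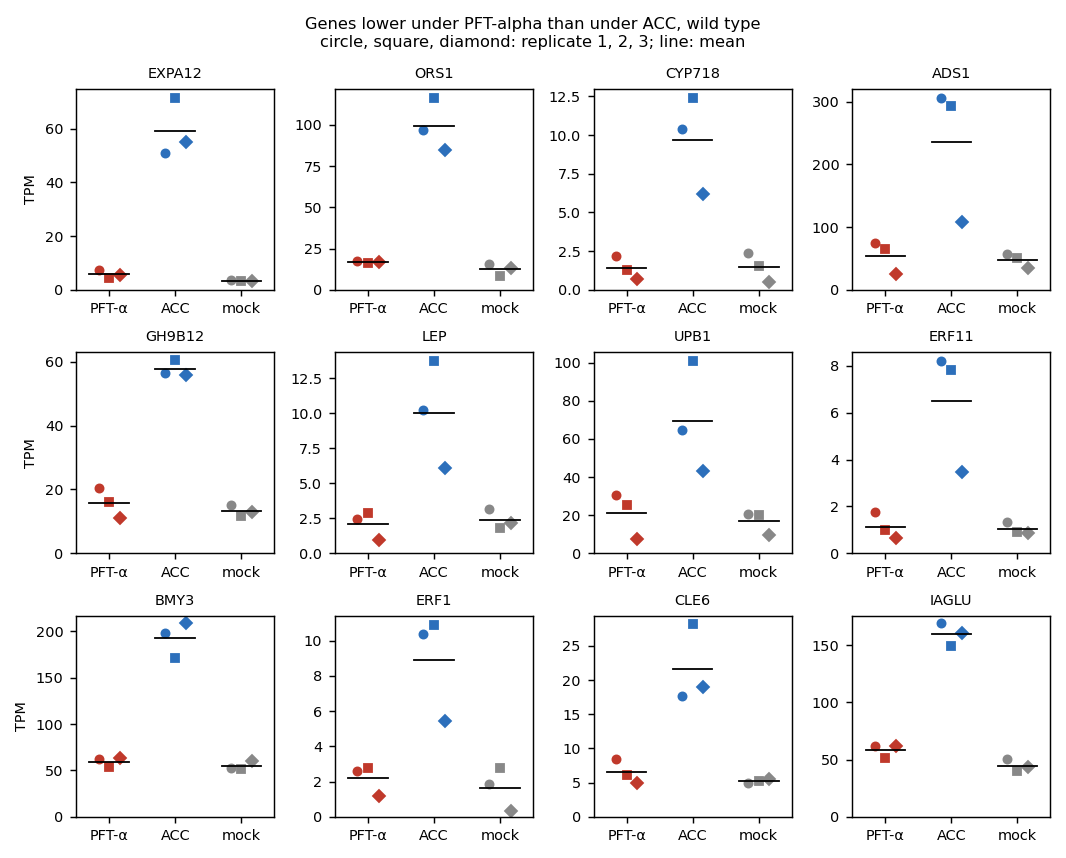
TPM of the 12 named genes with the largest log2 difference among those lower under PFT-alpha, by library, PFT-alpha left, ACC in the middle and mock right, with the mean as a line. In every panel the 3 PFT-alpha libraries lie below the 3 ACC libraries, as for EXPA12 with at most 7.45 TPM under PFT-alpha and at least 50.9 TPM under ACC.

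Among genes of ethylene perception and signalling, 3 of 16 tested fell and 0 rose (0.427% of all genes tested fell), with a list median of -0.20. The receptor ERS2 had 19.8, 13.7 and 17.3 TPM under PFT-alpha and 50.4, 46.4 and 45.4 TPM under ACC (log2 difference -1.45, SE 0.12, adjusted p = 0.0163). RTE1, which the receptor ETR1 needs for its function, had 15.0, 11.6 and 14.2 TPM under PFT-alpha and 33.9, 37.9 and 30.1 TPM under ACC (log2 difference -1.26, SE 0.15, adjusted p = 0.0343). CTR1, the kinase that holds the pathway shut, had 77.8, 70.05 and 51.7 TPM under PFT-alpha and 155, 148 and 110.3 TPM under ACC (log2 difference -1.04, SE 0.10, adjusted p = 0.0188). For each of the 3 genes all ACC libraries lay above all PFT-alpha libraries. The receptors ERS1 and ETR2 were lower in every pair without passing. ERS1 had 174, 157 and 114 TPM under PFT-alpha and 274, 273 and 202 TPM under ACC (log2 difference -0.76, SE 0.11, adjusted p = 0.0584), and ETR2 84.9, 69.7 and 60.1 TPM under PFT-alpha and 104, 119 and 108 TPM under ACC (log2 difference -0.63, SE 0.14, adjusted p = 0.123). ETR1 and EIN4, the other receptors, differed by -0.08 and -0.08 and were not called. Downstream, EIN2 stood at -0.61 (adjusted p = 0.0835), the F-box gene EBF2 at -0.53 (adjusted p = 0.134), EBF1 at -0.06 (adjusted p = 0.906) and EIN3 at -0.07 (adjusted p = 0.898). The number of calls in the list was 5 without replicate 1, 3 without replicate 2, 3 without replicate 3 and 0 without the replicate term.

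Enzymes that make ethylene gave no call among 13 tested (0 of 13, median 0.30; 0.854% of all genes were called). The ACC oxidase EFE, which turns ACC into ethylene, had 383, 287 and 104 TPM under PFT-alpha and 628, 765 and 359 TPM under ACC (log2 difference -1.30, SE 0.22, adjusted p = 0.0732), and the groups overlapped through replicate 3. Each of the ACC synthases ACS2, ACS5, ACS6, ACS7, ACS8 and ACS11 had a difference above 0, from 0.30 for ACS2 to 1.29 for ACS8. ACS8 had 2.52, 2.49 and 1.65 TPM under PFT-alpha and 0.45, 0.3 and 0.18 TPM under ACC (log2 difference 1.29, SE 0.20, adjusted p = 0.0607), with every PFT-alpha library above every ACC library. None of these differences passed over all genes.

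The genes that fell included regulators and enzymes of several kinds. Of 91 AP2/ERF factors tested, a family picked after the values were seen, 9 fell and 0 rose (0.427% of all genes tested fell), and 4 of the 9 are the ethylene-induced ERF1, TEM1, EDF3 and ERF2 already counted. LEP, which promotes gibberellin-dependent germination, had 2.47, 2.85 and 0.93 TPM under PFT-alpha and 10.2, 13.7 and 6.09 TPM under ACC (log2 difference -1.83, SE 0.14, adjusted p = 0.0149). ERF11, a repressor of ACC synthase genes, had 1.76, 1.01 and 0.65 TPM under PFT-alpha and 8.2, 7.84 and 3.48 TPM under ACC (log2 difference -1.77, SE 0.19, adjusted p = 0.0274). DREB26, Rap2.6L and AT1G36060 completed the 9 with LEP and ERF11. Of 87 genes whose annotation names a basic helix-loop-helix domain, also picked after the values were seen, 3 fell and 0 rose. They were HEC1 (-0.78, adjusted p = 0.0486), HEC2 (-0.99, adjusted p = 0.0248) and AT2G43140 (-1.02, adjusted p = 0.0362), HEC1 and HEC2 being known for roles in flower tissues and meristems. The count leaves out bHLH factors annotated under other names, such as UPB1 and PIF3, which fell as well. UPB1, known to set the balance of peroxide and superoxide in the root tip, had 30.5, 25.1 and 7.62 TPM under PFT-alpha and 64.5, 101 and 43.02 TPM under ACC (log2 difference -1.79, SE 0.24, adjusted p = 0.049).

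ADS1, annotated as a delta 9 fatty acid desaturase, had 74.8, 64.7 and 24.5 TPM under PFT-alpha and 306, 293 and 108 TPM under ACC (log2 difference -2.09, SE 0.10, adjusted p = 0.0063). Replicate 3 was the lowest of each group, and within each pair ACC was higher by a similar factor. BMY3, annotated as a beta-amylase, had 61.8, 53.5 and 63.1 TPM under PFT-alpha and 198, 171 and 209 TPM under ACC (log2 difference -1.68, SE 0.10, adjusted p = 0.00883). IAGLU, annotated as an enzyme that joins glucose to the auxin indole-3-acetic acid, had 61.5, 50.99 and 61.7 TPM under PFT-alpha and 169, 149 and 160.5 TPM under ACC (log2 difference -1.45, SE 0.10, adjusted p = 0.0126). In these 3 genes the spread within each group was small beside the distance between the groups, ADS1 replicate 3 aside. NSP5, which steers glucosinolate breakdown to nitriles, had 255, 237 and 330.2 TPM under PFT-alpha and 736, 554 and 876 TPM under ACC (log2 difference -1.39, SE 0.14, adjusted p = 0.021). Its relative NSP2 fell too (log2 difference -1.24, SE 0.17, adjusted p = 0.0491), but its level was 38.7 TPM in PFT-alpha replicate 3 and 79.4 TPM in ACC replicate 3, against 1.25 to 7.72 TPM in the other 4 libraries. In CYP718, GH9B12 and CLE6 all ACC libraries lay above all PFT-alpha libraries. CYP718, a cytochrome P450, averaged 1.39 ± 0.755 TPM under PFT-alpha and 9.67 ± 3.16 TPM under ACC (log2 difference -2.16, SE 0.19, adjusted p = 0.0163). GH9B12, of the glycosyl hydrolase 9 family that cuts wall glucans, averaged 15.8 ± 4.71 TPM under PFT-alpha and 57.6 ± 2.54 TPM under ACC (log2 difference -1.84, SE 0.17, adjusted p = 0.0182). CLE6, a small signalling peptide, averaged 6.497 ± 1.78 TPM under PFT-alpha and 21.6 ± 5.74 TPM under ACC (log2 difference -1.59, SE 0.21, adjusted p = 0.046).

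Several genes of growth and hormone control fell as well. They included PID, the kinase that directs PIN auxin carriers (-0.87, adjusted p = 0.0429), the Aux/IAA gene IAA28 (-0.71, adjusted p = 0.0491) and LOG5, of the enzymes that release active cytokinins (-1.04, adjusted p = 0.0188). The small peptides RTFL8 (-1.28, adjusted p = 0.033) and RTFL12 (-1.23, adjusted p = 0.0203), of a family whose overexpression limits cell proliferation, GRF2, a growth-regulating factor (-0.94, adjusted p = 0.0423), and HD2C, a histone deacetylase (-1.04, adjusted p = 0.0478), were among them. The amino acid permease AAP3 (-1.16, adjusted p = 0.0188), the branched-chain transaminase BCAT-1 (-1.13, adjusted p = 0.0188) and the threonine aldolase THA1 (-0.96, adjusted p = 0.0305) fell too, all genes of amino acid handling. These groups were read from the calls and were not tested as groups.

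Auxin-responsive genes had the highest median of the 22 gene lists, again a description of lists chosen with earlier results known. Of 32 tested, 6 rose and 0 fell relative to ACC (0.427% of all genes tested rose), and the list median was 0.80 against -0.016 for all genes. IAA6, a short-lived Aux/IAA repressor that auxin induces, had 32.6, 32.95 and 16.9 TPM under PFT-alpha and 3.03, 5.19 and 3.22 TPM under ACC (log2 difference 2.53, SE 0.20, adjusted p = 0.0154). It stood at 35.3, 36.4 and 17.3 TPM in mock. Replicate 3 was the lowest of the PFT-alpha libraries and was still above every ACC library. GH3.17, an enzyme that joins auxin to an amino acid, had 38.3, 37.5 and 19.7 TPM under PFT-alpha and 9.38, 13.2 and 6.78 TPM under ACC (log2 difference 1.59, SE 0.14, adjusted p = 0.0163). GH3.3, of the same family, averaged 18.1 ± 4.68 TPM under PFT-alpha and 8.64 ± 1.96 TPM under ACC (log2 difference 0.97, SE 0.13, adjusted p = 0.0491). SAUR19, of a family that promotes cell expansion in the hypocotyl, had 57.4, 64.5 and 33.1 TPM under PFT-alpha and 17.58, 21.6 and 17.5 TPM under ACC (log2 difference 1.35, SE 0.17, adjusted p = 0.04). SAUR23 rose too (1.27, adjusted p = 0.0163), as did IAA14 (0.97, adjusted p = 0.0491), whose call held in only 6 of 14 alternatives. SAUR19 to SAUR24 are near-identical copies among which reads may be split, so their values are uncertain singly. SAUR20, SAUR22 and SAUR24 differed by 0.83, 1.04 and 1.33 without passing (adjusted p = 0.168, 0.0674 and 0.0653).

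The other members of the auxin list ranged widely. IAA19 had 215, 214 and 69.6 TPM under PFT-alpha and 59.5, 105 and 46.5 TPM under ACC (log2 difference 1.14, SE 0.24, adjusted p = 0.107), with pair differences of 1.84, 1.01 and 0.57. AXR3, which is IAA17, stood at 0.10 and IAA7 at 0.18, and IAA20 at -0.57 (adjusted p = 0.117) was on the lower side. The list median was 1.13 in pair 1, 0.72 in pair 2 and 0.42 in pair 3, and the number of calls in the list moved with the libraries used. It was 9 without replicate 1, 12 without replicate 2, 15 without replicate 3 and 0 without the replicate term. Scaling by median of ratios gave 4 calls and quantile scaling 3. Genes of auxin synthesis and transport gave no call among 20 tested (median 0.04), where 0.854% of all genes tested were called. In this list 4 genes were higher and 3 lower with groups that did not overlap, where 4.93% and 4.43% of all genes tested were. The carrier genes LAX2 (log2 difference 0.90, SE 0.15, adjusted p = 0.0693) and PIN3 (log2 difference 0.60, SE 0.11, adjusted p = 0.0839) were among the 4. The synthesis gene TAA1 stood at -0.26. WAT1, which was not in a list and is known as an auxin transporter of the vacuole membrane needed for thick walls, had 193, 203 and 82.7 TPM under PFT-alpha and 52.7, 58.5 and 33.7 TPM under ACC (log2 difference 1.63, SE 0.14, adjusted p = 0.0163).

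**Figure D4:**
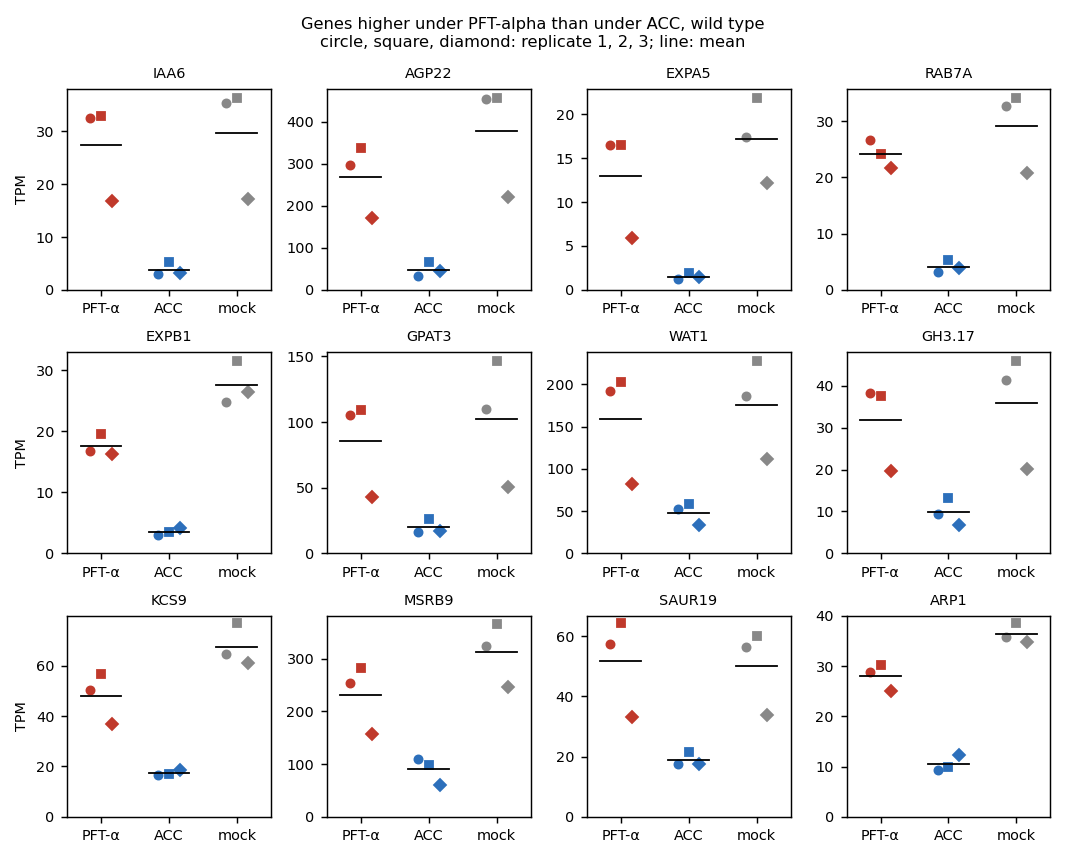
TPM of the 12 named genes with the largest log2 difference among those higher under PFT-alpha, by library, PFT-alpha left, ACC in the middle and mock right, with the mean as a line. In every panel the 3 PFT-alpha libraries lie above the 3 ACC libraries, as for IAA6 with at least 16.9 TPM under PFT-alpha and at most 5.19 TPM under ACC.

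Upstream sequence of 4 of these genes is shown because they stand for the ethylene-induced, auxin-responsive and expansin genes with large differences. Each run is the 250 bases before the annotated gene start in the RefSeq annotation of TAIR10.1, 5′ to 3′ on the gene's strand, with matches to the searched motifs in capitals. The motifs were searched on both strands. ATGTAC is the core of sites that EIN3 binds, and ATGNAC is the same with 1 base free, so it holds every match of the core. Auxin response factors are known to bind the letters TGTCTC and, more tightly, TGTCGG. The G-box is CACGTG. The GCC-box, which ERF factors bind, was searched as GCCGCC.
EXPA12, chr3:5190304-5190553, plus strand: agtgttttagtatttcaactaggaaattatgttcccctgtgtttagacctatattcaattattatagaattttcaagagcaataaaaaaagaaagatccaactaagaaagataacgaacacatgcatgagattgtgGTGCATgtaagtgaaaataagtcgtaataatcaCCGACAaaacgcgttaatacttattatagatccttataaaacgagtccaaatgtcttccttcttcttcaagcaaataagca
ERF1, chr3:8295367-8295616, plus strand: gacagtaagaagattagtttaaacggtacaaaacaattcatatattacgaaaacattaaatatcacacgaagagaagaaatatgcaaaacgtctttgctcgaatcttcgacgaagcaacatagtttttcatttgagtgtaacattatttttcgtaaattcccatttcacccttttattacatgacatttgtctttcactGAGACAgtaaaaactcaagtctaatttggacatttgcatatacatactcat
EXPA5, chr3:11013452-11013701, minus strand: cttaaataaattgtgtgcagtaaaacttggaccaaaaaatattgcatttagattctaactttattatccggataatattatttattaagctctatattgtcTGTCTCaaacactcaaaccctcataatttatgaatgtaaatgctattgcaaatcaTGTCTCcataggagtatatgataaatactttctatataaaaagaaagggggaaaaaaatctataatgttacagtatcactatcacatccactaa
IAA6, chr1:19673653-19673902, minus strand: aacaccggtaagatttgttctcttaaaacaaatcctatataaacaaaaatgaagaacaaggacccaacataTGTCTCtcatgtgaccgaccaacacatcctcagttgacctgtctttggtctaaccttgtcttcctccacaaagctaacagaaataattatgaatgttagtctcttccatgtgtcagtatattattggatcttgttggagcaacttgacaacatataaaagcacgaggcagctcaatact
In EXPA12 the capitals are an ATGNAC match and a TGTCGG match, both on the opposite strand. In ERF1 they are a TGTCTC match on the opposite strand, in EXPA5 a pair of TGTCTC matches, and in IAA6 a TGTCTC match. ATGTAC was found in 17.3% of 81 promoters of genes that fell, 13.1% of 84 promoters of genes that rose, and 9.5% of all 19180 promoters of tested genes. ATGNAC was found in 44.4% of promoters of genes that fell, 35.7% of those that rose and 30.5% of all. TGTCTC was found in 11.1% of those that fell, 14.3% of those that rose and 10.6% of all, and TGTCGG in 4.9% of those that fell, 6.0% of those that rose and 4.6% of all. CACGTG was in 9.9% of those that fell, 11.9% of those that rose and 7.5% of all. GCCGCC was in 1.2% of those that fell, 0.0% of those that rose and 1.9% of all. A match describes the letters in this window and no more.

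Expansins moved in both directions. Of 18 tested, 3 rose and 1, EXPA12, fell (0.427% of all genes tested in each direction), and the list median was 0.12. EXPA5 had 16.6, 16.5 and 5.91 TPM under PFT-alpha and 1.18, 1.87 and 1.42 TPM under ACC (log2 difference 2.38, SE 0.29, adjusted p = 0.039). EXPB1 had 16.8, 19.5 and 16.4 TPM under PFT-alpha and 3.05, 3.53 and 4.14 TPM under ACC (log2 difference 2.02, SE 0.14, adjusted p = 0.0126). EXPA6 had 43.3, 41.6 and 53.3 TPM under PFT-alpha and 16.6, 14.5 and 26.5 TPM under ACC (log2 difference 1.26, SE 0.13, adjusted p = 0.022). In all 3 genes every PFT-alpha library was above every ACC library, and EXPA5 replicate 3 was the lowest of its PFT-alpha libraries. EXPA9 was lower in every pair without passing (log2 difference -0.79, SE 0.17, adjusted p = 0.108), and EXP3, EXPA1 and EXPA20 lay between -0.18 and 0.04.

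Xyloglucan and cellulose enzymes gave no call among 19 tested (median 0.11), where 0.854% of all genes tested were called. The xyloglucan endotransglucosylase TCH4, which auxin and touch induce, had 65.8, 62.5 and 30.1 TPM under PFT-alpha and 23.6, 22.6 and 18.1 TPM under ACC (log2 difference 1.19, SE 0.17, adjusted p = 0.0522). XTH31 had 164, 163 and 61.7 TPM under PFT-alpha and 309, 315 and 190.3 TPM under ACC (log2 difference -1.15, SE 0.17, adjusted p = 0.0566), the other way. Both adjusted p-values lay just over the threshold, and both genes were called when any 1 replicate was left out, TCH4 with 0.00636 and XTH31 with 0.0311 without replicate 3. The cellulose synthases CESA1, CESA2, CESA5 and CESA6 differed by 0.13, 0.01, 0.45 and 0.24.

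Arabinogalactan proteins are heavily glycosylated proteins of the cell surface. Of 42 tested, 3 rose and 0 fell, where 0.427% of all genes tested rose. The family was picked after the values were seen, so its count tests nothing. AGP22 had 296, 338 and 170.3 TPM under PFT-alpha and 32.95, 65.7 and 45.2 TPM under ACC (log2 difference 2.46, SE 0.23, adjusted p = 0.0188). AGP2 had 231, 224 and 70.5 TPM under PFT-alpha and 109.7, 108 and 29.03 TPM under ACC (log2 difference 1.12, SE 0.11, adjusted p = 0.0188), and here replicate 3 of PFT-alpha lay below 2 ACC libraries. AT4G16980, annotated to the same family, averaged 222 ± 25.3 TPM under PFT-alpha and 73.4 ± 10.2 TPM under ACC (log2 difference 1.58, SE 0.14, adjusted p = 0.0182). AGP22 was the most abundant of the 12 higher genes by mean TPM under PFT-alpha, followed by MSRB9, which repairs oxidised methionine and had 255, 282 and 157 TPM under PFT-alpha and 110.3, 98.9 and 60.3 TPM under ACC (log2 difference 1.36, SE 0.12, adjusted p = 0.0163).

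Some genes of lipid metabolism rose, while the desaturase ADS1 fell; they were grouped after their values were seen, and the grouping was not tested. GPAT3, an acyltransferase of glycerol-3-phosphate, had 105, 109 and 42.5 TPM under PFT-alpha and 15.9, 26.2 and 17.3 TPM under ACC (log2 difference 1.97, SE 0.25, adjusted p = 0.042). KCS9, which lengthens very-long-chain fatty acids, had 50.2, 56.9 and 36.6 TPM under PFT-alpha and 16.5, 17.1 and 18.7 TPM under ACC (log2 difference 1.39, SE 0.17, adjusted p = 0.0354). KCS5 rose too (1.05, adjusted p = 0.0413), making 2 of 15 ketoacyl-CoA synthases, where 0.427% of all genes tested rose. CER1 and CER3, which together make wax alkanes, differed by 0.77 (SE 0.10, adjusted p = 0.0454) and 0.72 (SE 0.10, adjusted p = 0.0497), close to the smallest difference called, 0.713. The GDSL lipases AT1G75900 (2.77, adjusted p = 0.0163), AT1G29660 (2.56, adjusted p = 0.0126) and AT5G45950 (1.39, adjusted p = 0.0491) were 3 of 49 tested. Epidermis markers in the tissue list were not called, with PDF1 at 1.02 (adjusted p = 0.0653), KCS10 at 0.31 and ATML1 at -0.22.

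Other named genes that rose were RAB7A, ARP1 and RVE2. RAB7A, a small GTPase of the family that serves traffic to the vacuole, had 26.6, 24.3 and 21.6 TPM under PFT-alpha and 3.25, 5.25 and 3.89 TPM under ACC (log2 difference 2.31, SE 0.16, adjusted p = 0.0126). ARP1 had 28.8, 30.2 and 25.0 TPM under PFT-alpha and 9.4, 9.84 and 12.3 TPM under ACC (log2 difference 1.34, SE 0.15, adjusted p = 0.0305). It was 1 of 5 RNA-binding proteins with an RRM domain that rose among 104 tested, where 0.427% of all genes tested rose. That family, too, was picked after the values were seen. RVE2, a MYB-like factor of the REVEILLE family that includes clock genes, had 168, 184 and 161 TPM under PFT-alpha and 86.1, 111 and 84.5 TPM under ACC (log2 difference 0.87, SE 0.11, adjusted p = 0.0418). For all 3 the libraries of a group lay close together. MYB34, a regulator of indole glucosinolates (1.00, adjusted p = 0.0254), NF-YB2 (0.90, adjusted p = 0.0378) and TAS3, whose small RNAs limit auxin response factors (0.86, adjusted p = 0.0343), rose as well.

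Light and shade genes changed singly. Of 18 shade avoidance and PIF genes, HAT1 rose and PIF3 fell, with a median of 0.30. Of all genes tested, 0.427% were called in each direction. HAT1, a homeodomain-leucine zipper factor, had 46.04, 47.8 and 35.2 TPM under PFT-alpha and 20.9, 17.9 and 14.2 TPM under ACC (log2 difference 1.24, SE 0.11, adjusted p = 0.0163). PIF3, a bHLH factor that keeps seedlings etiolated and is an EIN3 target, had 121, 107 and 109 TPM under PFT-alpha and 194, 213 and 196 TPM under ACC (log2 difference -0.83, SE 0.12, adjusted p = 0.0497). Of this pair the PIF3 call was the less stable, holding in 7 of 14 alternatives against 12 of 14 for HAT1. PIF3 was not alone in this among the genes named here. IAA14 and NSP2 held in 6 of 14, and IAA28, HD2C, HEC1, VOZ1 and CER3 in 7. UPB1, CLE6 and RVE2 held in 8 of 14. PIF4 (0.86, adjusted p = 0.0853) and HB-2 (0.77, adjusted p = 0.0607), a relative of HAT1, did not pass, although their groups did not overlap. Of 21 light signalling and greening genes, GLK2, a factor for chloroplast development, rose (32.2, 34.6 and 35.7 TPM under PFT-alpha, 14.9, 16.96 and 16.8 TPM under ACC; log2 difference 1.03, SE 0.10, adjusted p = 0.0194). Its partner GPRI1, which is GLK1, had 18.6, 23.99 and 28.9 TPM under PFT-alpha and 11.96, 9.93 and 12.6 TPM under ACC and just failed (log2 difference 0.97, SE 0.15, adjusted p = 0.0629). The protochlorophyllide oxidoreductase genes PORA (-0.28) and PORB (-0.32) and the 18 antenna and Rubisco genes (median -0.01) gave no call. The light list held 6 calls without replicate 1 and 1 without replicate 3, and the shade list 2 and 6.

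Lists of other hormone pathways gave 1 call, where 0.854% of all genes tested were called. At that share a count of 0 in lists this small says little. ABI1, a phosphatase that blocks abscisic acid signalling, was the only 1 of 11 abscisic acid and cold genes that passed, with 87.4, 75.9 and 59.3 TPM under PFT-alpha and 160.5, 152 and 136 TPM under ACC (log2 difference -1.02, SE 0.11, adjusted p = 0.0305). Brassinosteroid genes gave 0 of 10 (median 0.24). BR6OX1, which acts late in brassinosteroid synthesis, had 8.96, 7.47 and 7.35 TPM under PFT-alpha and 2.91, 3.99 and 3.2 TPM under ACC (log2 difference 1.03, SE 0.17, adjusted p = 0.0653). Gibberellin genes gave 0 of 16 (median -0.04), with GA20OX1 at 0.73 (adjusted p = 0.103) and GA3OX1 at 0.68 (adjusted p = 0.0941), both synthesis genes. Jasmonate markers (AOS, JAZ1, JAZ10, VSP1 and VSP2) gave 0 of 5. The salicylate markers PR1, PR2 and PR5 were not among the genes tested, so nothing is said of them.

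**Figure D5:**
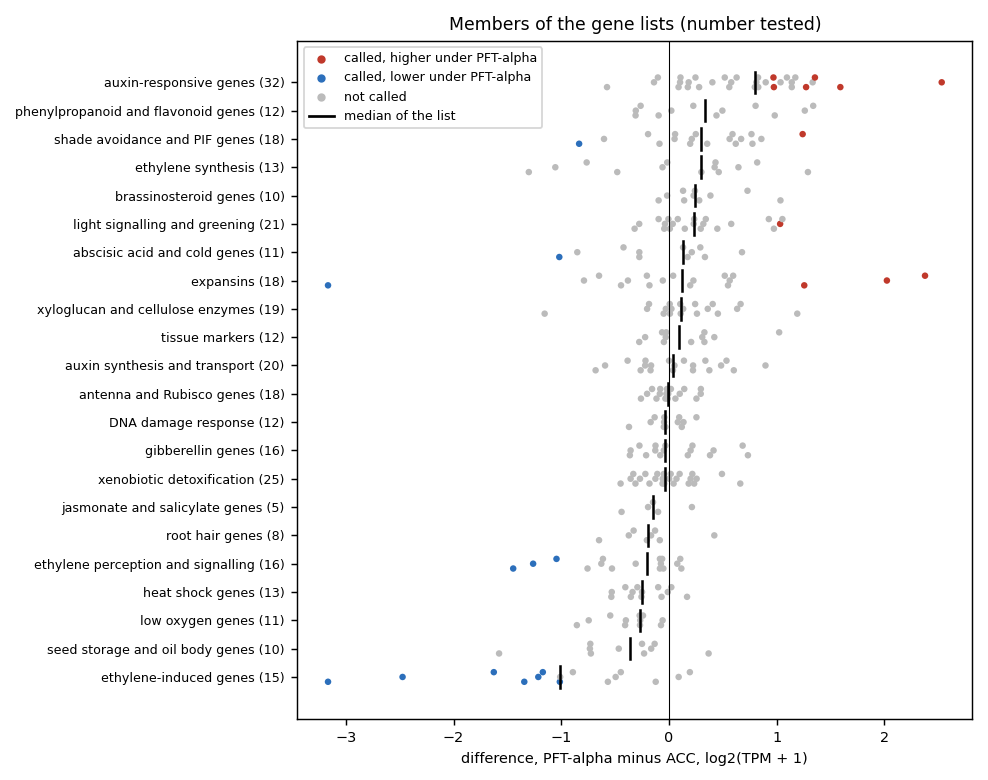
Each tested member of the 22 gene lists by its difference between PFT-alpha and ACC (horizontal, log2(TPM + 1)), called members coloured and the list median as a black line. The ethylene-induced genes have the lowest median, -1.01, and the auxin-responsive genes the highest, 0.80.

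Lists of stress and detoxification gave no call, where 0.854% of all genes tested were called, so a count of 0 says little. The 25 xenobiotic genes, mainly glutathione S-transferases, had a median of -0.04, and the 12 genes of the DNA damage response a median of -0.04. SOG1, often called the plant counterpart of p53, stood at -0.03. The 11 low oxygen genes all lay below 0 (median -0.27), with pair medians of 0.07 in pair 1, -1.15 in pair 2 and -0.12 in pair 3. HB1, a haemoglobin, had 212, 138 and 43.7 TPM under PFT-alpha and 229, 507 and 66.5 TPM under ACC (log2 difference -0.86, SE 0.32, adjusted p = 0.349). The 13 heat shock genes had a median of -0.25, the 12 phenylpropanoid and flavonoid genes 0.33, the 10 seed storage genes -0.36, the 8 root hair genes -0.19 and the 12 tissue markers 0.09. The anthocyanin regulator PAP1 had 8.0, 10.4 and 20.8 TPM under PFT-alpha and 4.33, 3.77 and 4.41 TPM under ACC (log2 difference 1.34, SE 0.24, adjusted p = 0.0839), its distance being widest in pair 3. These marker lists held no call, and their part in the differences of other genes was not tested.

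MYB4, AT2G44130 and AT3G13310 were higher under PFT-alpha, with mock levels nearer to ACC than to PFT-alpha. They were picked after their values were seen. MYB4, a repressor of phenylpropanoid genes, had 129, 118 and 71.6 TPM under PFT-alpha and 42.2, 60.8 and 36.1 TPM under ACC (log2 difference 1.17, SE 0.16, adjusted p = 0.0466), and 65.1, 64.02 and 32.8 TPM in mock. AT2G44130, annotated as a kelch repeat protein, had 370.3, 301 and 141 TPM under PFT-alpha and 75.8, 91.7 and 60.7 TPM under ACC (log2 difference 1.73, SE 0.21, adjusted p = 0.0362), and 122, 131 and 45.9 TPM in mock. AT3G13310, annotated as a chaperone with a DnaJ domain, had 181, 194 and 84.5 TPM under PFT-alpha and 54.8, 61.4 and 42.8 TPM under ACC (log2 difference 1.44, SE 0.17, adjusted p = 0.0345), and 83.3, 81.7 and 28.2 TPM in mock. In all 3 genes each PFT-alpha library was above the mock library of its number, and mock did not enter the test. C4H, which MYB4 is known to repress, stood at -0.26 (adjusted p = 0.378) and was not called. Of the 12 phenylpropanoid and flavonoid genes tested, C4H among them, 8 lay above 0 and 4 below (median 0.33). A link between MYB4 and these genes was not tested.

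Some calls are uncertain as single genes. Both largest differences, in ath-MIR4228 and AT3G01319, belong to features shorter than 200 bases, listed at 0 TPM in all ACC libraries, and no fold is given. Mock levels of AT3G01319 were 85.98, 0 and 0 TPM, so a 0 is not particular to ACC. Among the 174 were 1 gene model assembled by the authors, 9 genes without a protein product, 35 that overlap another gene and 14 with an antisense gene over at least 50% of their length, which 1178 of the 20367 tested genes have. Whether the counting used strand is not given in the sources used here, so the reads of such pairs may not be told apart.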

How the data were processed

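Polyadenylated RNA of whole seedlings was sequenced as 150-base read pairs, per the labels' protocols. The authors deposited TPM per gene and library, named so per the file headers. The submitters' processing notes name the TAIR10 build and the tools DESeq2, fastp, HISAT, HISAT2, RSEM and StringTie, without versions or roles. The table held 33033 genes and 5 columns of group means, which were not used. No count table was used, and hence no count model. Depth was estimated from low TPM values times length, of which 83.0 to 85.8% lay within 0.15 of a whole number of fragments. For a transcript of 1500 bases, 1 TPM then equals 19.9 to 23.3 fragments.

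A gene was tested if 2 or more of the 6 libraries reached 1 TPM (20367 genes, leaving out 12666). log2(TPM + 1) was fitted with limma 3.58.1 (R 4.3.3) with treatment and replicate number as terms and an intensity trend, two-sided, with Benjamini-Hochberg adjustment over all genes tested at 0.05. Deviations from the group means correlated at 0.35, 0.56 and 0.75 between libraries of the same number, and this hint, not a label of shared origin, is where the pairing comes from. Libraries of numbers 1 and 2 also correlated across numbers. PFT-alpha 1 stood at 0.56 with ACC 2, above its 0.35 with ACC 1, and PFT-alpha 2 at 0.38 with ACC 1. The correlations set replicate 3 apart but do not show that numbers 1 and 2 belong in pairs. Python 3.11.15, numpy 2.4.6, pandas 2.3.3 and matplotlib 3.10.9 were used for tables and figures.

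Members and lists were chosen with earlier results of these data known, so no adjustment over a list alone is given. Named genes were those called with a symbol, not under 200 bases and with all pairs in one direction: the 12 with the largest log2 difference and the 5 with the largest TPM difference in each direction (28 genes). Members of the 22 lists (330 loci tested) were also named. Families were formed from annotation text after the values were seen. Symbols came from the deposited table for 10893 genes and from RefSeq only for 16. Gene overlaps and upstream sequence came from the RefSeq annotation of TAIR10.1, in which 32548 of the identifiers were found. The deposited table gives no coordinates. The alternatives were 13 planned and 1 added after the data were seen.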

Additional observations from a re-analysis of the deposited data

How the results depend on the processing

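No called gene changed sign in any alternative that tested it, while the number of calls moved. With all 3 pairs of each call in one direction, only the scaling alternatives could have changed a sign. All 174 were tested except under the filter of 5 TPM (161 tested) and without short features and assembled models (171 tested). Without the replicate block 12 genes were called (5 higher, 7 lower, all 12 at least 2-fold). With all 9 wild-type libraries and the block, 648 were called (422 higher, 226 lower, 225 at least 2-fold), among them 169 of the 174. Without a filter on low values limma called 0 genes, of 25209 tested (0 higher, 0 lower, 0 at least 2-fold), with 2679 at an unadjusted p under 0.05 and the lowest adjusted p at 0.0623. With a filter of 5 TPM in at least 3 libraries, 277 were called (145 higher, 132 lower). Without the intensity trend 56 were called (27 higher, 29 lower, all 56 at least 2-fold). Quantile scaling left 48 higher and 68 lower, 116 in all, and median-of-ratios scaling 128. Pseudocounts of 0.1 and 5 TPM gave 141 and 182, and leaving out short features and assembled models 227. Leaving out 1 replicate pair gave 304 to 576 calls (166 to 391 higher, 138 to 236 lower, 266 to 350 at least 2-fold) and 3572 to 9380 genes with groups that did not overlap, since fewer libraries overlap less. In a fit chosen after seeing the data, without the replicate block and without replicate 3, 474 were called (312 higher, 162 lower, 259 at least 2-fold, 9380 with groups that did not overlap), among them 161 of the 174. Apart from fewer libraries and fewer or more genes tested, the cause of these moves was not tested. Genes near 1 TPM rest on few fragments, so their differences are the least precise.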

Other observations

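Further called genes with roles in metabolism, cell walls and signalling are given here; they and their families were chosen after their values were seen. Family counts stand beside 0.427% of all genes tested called in each direction, and nothing particular to a family is read from them. AT1G72290, annotated as a Kunitz-type protease inhibitor, had 6.99, 5.59 and 9.97 TPM under PFT-alpha and 35.4, 30.6 and 65.7 TPM under ACC (log2 difference -2.35, SE 0.13, adjusted p = 0.0063). AT1G50110, annotated as an aminotransferase, had 5.85, 5.89 and 7.15 TPM under PFT-alpha and 34.3, 32.7 and 39.7 TPM under ACC (log2 difference -2.33, SE 0.11, adjusted p = 0.0063). Both fell, and the highest PFT-alpha library was below the lowest ACC library. The acyltransferases AT2G39980 (-2.11, adjusted p = 0.0126) and AT5G01210 (-0.89, adjusted p = 0.0497) were 2 of 38 of their family that fell, with 0 that rose, and the glycosyltransferases AT5G05880 (-0.97, adjusted p = 0.0338) and AT5G49690 (-0.92, adjusted p = 0.0305) were 2 of 97, with 0 that rose. The transcription factor VOZ1 fell too (-0.78, adjusted p = 0.0497), as did NAC6, which had 30.9, 25.3 and 9.09 TPM under PFT-alpha and 55.2, 51.98 and 21.9 TPM under ACC. The NAC6 groups overlap, since replicate 3 was the lowest of each, and ACC was higher within every pair.

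Among pectin and wall genes, the polygalacturonase PG2, which cuts pectin, had 59.3, 58.96 and 35.9 TPM under PFT-alpha and 25.4, 21.5 and 20.9 TPM under ACC (log2 difference 1.12, SE 0.15, adjusted p = 0.0454), and rose with TBL37, of a family that acetylates wall polymers (0.96, adjusted p = 0.0454). Protein phosphatases of the 2C family went both ways, with AT5G66080 higher under PFT-alpha (21.96, 22.2 and 23.4 TPM under PFT-alpha, 6.01, 6.87 and 8.65 TPM under ACC; log2 difference 1.54, SE 0.13, adjusted p = 0.0163) and ABI1 and AT5G02760 (-0.80, adjusted p = 0.0448) lower, 3 of 52 tested. ABI1 is a negative regulator of abscisic acid signalling. SAUR-like genes outside the auxin list were also mixed, SAUR26 (1.30, adjusted p = 0.0429) and AT2G18010 (1.63, adjusted p = 0.0188) rising and AT5G20820 (-1.71, adjusted p = 0.0163) and AT4G09530 (-1.07, adjusted p = 0.033) falling, among 67 tested in that family.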
